A study of Mus musculus with 6 samples.

Results

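The Hippo pathway ends in a pair of related transcriptional coactivators, YAP and TAZ, which do not bind DNA themselves and act through the TEAD family of DNA-binding proteins. The kinases LATS1 and LATS2 phosphorylate YAP and TAZ, which holds them in the cytoplasm and marks them for degradation. Ccn1 and Ccn2, which encode secreted matricellular proteins, are among the best known transcriptional targets of YAP, TAZ and TEAD, and Lats2 is itself such a target, which closes a negative feedback loop. Described here are the 10 genes of this module, read through every probe set paired with exactly 1 of the symbols Yap1, Wwtr1 (the gene of TAZ), Tead1, Tead2, Tead3, Tead4, Lats1, Lats2, Ccn1 and Ccn2. These were 24 of the 45037 probe sets that are not controls, and all 10 genes had at least 1. Another probe set names Lats2 together with a second gene and was not used.

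RNA came from GC1-Spg, a mouse cell line made by immortalizing spermatogonia, the dividing germ cells at the base of the testis tubule, with the SV40 large T antigen. The cells received 100 nM of siRNA against mrhl, a nuclear noncoding RNA, or 100 nM of a scrambled siRNA, and RNA was taken at 44 h. Silencing was checked by quantitative PCR, per the design text. Each group held 3 biological replicates, each on its own 1-colour Affymetrix array, and both groups share the transfection; no untransfected cells were analysed here. The comparison asks which transcripts of the pathway differ in level when mrhl is silenced. No probe set of the probe table names mrhl, so its level was not read here.

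The array medians of the deposited log2 values lay within 0.11 of each other, and the number of arrays limits the precision. Both groups carry numbers 1 to 3, and arrays of equal number deviated together from their group means, so equal numbers were read as pairs. Of the 10 germ cell markers examined, 8 had a mean above 3.62, the minimum set for testing a probe set, and 4 of these, Etv5, Gfra1, Id4 and Uchl1, above 5.23, the level of the median probe set. The other 2, the defining germ cell genes Ddx4 and Dazl, lay under 3.62. The Sertoli cell gene Wt1 stood at 10.86, 10.89 and 10.76 after mrhl siRNA and at 10.92, 10.47 and 10.67 after scrambled siRNA. The mesenchymal genes Vim, Col1a1 and Acta2 averaged 12.94, 12.35 and 10.69 over the arrays. They were picked from 8 markers of peritubular myoid cells and fibroblasts, of which 5 lay above 5.23. Of the 7 Sertoli cell markers, Wt1 among them, 5 lay above 5.23. The markers of the labelled cell type were thus mixed, with Ddx4 and Dazl not above the minimum and 8 of 10 above it. Their summed linear level over the 10 ran from 449.5 to 572 after mrhl siRNA and from 484 to 581 after scrambled siRNA. Over the 8 markers of peritubular myoid cells and fibroblasts, all above 3.62, the summed linear level ran from 17133 to 19828 after mrhl siRNA and from 12976 to 19204 after scrambled siRNA. Over the 7 Sertoli cell markers, also all above it, it ran from 5724 to 7160 after mrhl siRNA and from 6746 to 7695 after scrambled siRNA. The part of other cell types in the results below was not tested.

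Sequence around the start of some members shows where TEAD proteins could bind. The core letters of the TEAD recognition motif are GGAATG, read as CATTCC on the other strand, and they were searched on both strands in RefSeq windows of 300 bases, 250 before and 50 after each start (GRCm38.p6). Windows were present for 7 of the 10 genes, and 5 of these held a match, in 7 of their 11 windows. Over all genes with a window, 16.6% held a match, and over all windows 14.7%. Tead2 and Lats1 had no match in these windows, and no windows were matched for Ccn2, Tead1 and Tead4. A match is a string of letters and not a shown binding site.

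The 250 bases upstream of Ccn1 are shown because Ccn1 is the most used target of the pathway with a window here. They lie at chr3:145649986-145650235 on the minus strand, and the capitals mark the match, whose position relative to the start is -103.
Ccn1 upstream: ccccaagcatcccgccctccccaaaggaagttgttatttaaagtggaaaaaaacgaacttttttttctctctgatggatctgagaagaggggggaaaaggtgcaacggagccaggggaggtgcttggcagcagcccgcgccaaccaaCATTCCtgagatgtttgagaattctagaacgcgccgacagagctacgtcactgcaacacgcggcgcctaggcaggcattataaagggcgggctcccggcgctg

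Windows of 30 bases, with the match in capitals, follow for the feedback target Lats2 and for both coactivator genes, all on the minus strand. They lie at chr14:57746102-57746131 for Lats2, at chr9:8004720-8004749 for Yap1 and at chr3:57576029-57576058 for Wwtr1. Lats2 and Wwtr1 each had 2 windows, and 1 of those of Lats2 and 2 of those of Wwtr1 held a match. The 2 windows of Wwtr1 share the same site, so it is counted in both. Tead3, not shown, held matches in 2 of its 3 windows. Relative to the start on which the window was built, the matches lie at 5 in Lats2, at -141 in Yap1 and at -136 in Wwtr1.
Lats2: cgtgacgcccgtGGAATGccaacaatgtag
Yap1: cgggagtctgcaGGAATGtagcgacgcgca
Wwtr1: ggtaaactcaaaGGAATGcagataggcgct

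None of the module's transcripts passed the test between mrhl siRNA and scrambled siRNA. Of its 24 probe sets, 21 were bright enough to be tested, and 0 had an adjusted p under 0.05 (limma, adjusted p from 0.965 to 0.999), where 0% of all 33778 tested probe sets did. At an unadjusted p under 0.05 stood 0 of the 21, beside 3.44% of all tested probe sets. The 21 probe sets split into 6 log2 fold changes above 0 and 15 below it, and their median was -0.12, against a median of -0.03 over all tested. With the replicate number as a block, again 0 of 21 passed (limma, smallest adjusted p = 0.487), as did 0% of all probe sets.

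That block moved the count at an unadjusted p under 0.05 to 5 of the 21, beside 10.1% of all probe sets. All 5 were lower after mrhl siRNA, where 6.23% of all probe sets were lower and 3.87% higher by that rule. They belong to 3 genes: 1 probe set of Lats1, 2 of Lats2 and 2 of Ccn1, and probe sets of a gene are not independent of each other. Read through the brightest probe set of each gene, the count was 1 of the 10 genes, Lats2, beside 9.03% of all 14885 genes, a share near that background. Of the 21, 5 were higher and 9 lower after mrhl siRNA in 3 of 3 pairs, against 14.1% higher and 23.4% lower of all tested probe sets. The groups did not overlap in 4 of the 21: 1 was higher, beside 2.58% of all, and 3 were lower, beside 5.82%.

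**Figure D1:**
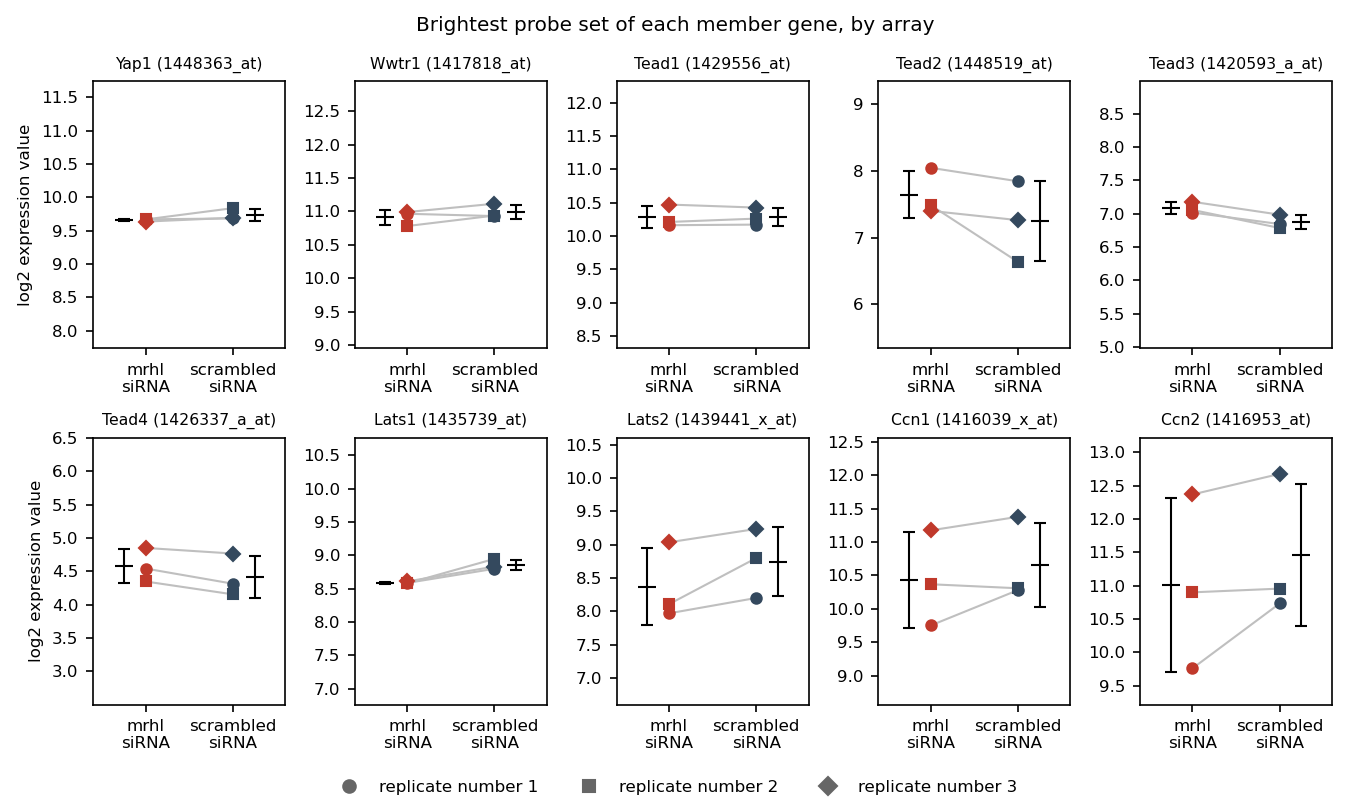
Log2 expression value of the brightest probe set of each member gene on every array; each panel spans 4 log2 units. Points are arrays (mrhl siRNA red, scrambled siRNA dark), lines join equal replicate numbers, and bars give mean and SD (n = 3). Ccn2, Ccn1 and Lats2 are highest on both arrays of number 3, while Yap1, Lats1 and Tead3 vary little within a group.

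The coactivator gene Yap1 was nearly level across the arrays. Its brighter probe set had log2 values of 9.67, 9.67 and 9.64 after mrhl siRNA (replicate numbers 1, 2 and 3, an order kept below) and 9.68, 9.84 and 9.69 after scrambled siRNA. Every mrhl siRNA array lay just under every scrambled siRNA array, with a log2 fold change of -0.08 (SE 0.131, 95% interval -0.39 to 0.23, limma, adjusted p = 0.968). In bulk RNA a lower level per cell and fewer cells that carry a transcript cannot be told apart, here and below. The dimmer probe set of Yap1 had -0.02 (95% interval -0.43 to 0.40), with pairs on both sides of 0.

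Wwtr1, which encodes TAZ, was represented by 3 bright probe sets that did not point the same way. The brightest stood at 10.97, 10.78 and 10.99 after mrhl siRNA and at 10.93, 10.94 and 11.12 after scrambled siRNA, a log2 fold change of -0.08 (95% interval -0.42 to 0.25). The second brightest stood at 9.94, 10.15 and 10.18 after mrhl siRNA and at 9.60, 9.84 and 10.02 after scrambled siRNA. All 3 pairs had the higher value after mrhl siRNA, by 0.34, 0.31 and 0.16, with a log2 fold change of 0.27 (95% interval -0.12 to 0.66, limma, adjusted p = 0.965, and 0.498 with the replicate block). The dimmest of the 3 was also higher in 3 of 3 pairs, by 0.24, 0.27 and 0.22, with a log2 fold change of 0.24 (SE 0.204). The mean over the 3 probe sets was 0.14, so the direction for the gene depends on which of them is read. The 2 dimmer ones carry the suffix _a_at, which marks probe sets whose probes match several transcripts of a gene, and which transcripts these read was not tested.

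Among the DNA-binding partners, Tead1 had the least difference. Its bright probe set stood at 10.16, 10.21 and 10.47 after mrhl siRNA and at 10.17, 10.26 and 10.43 after scrambled siRNA, a log2 fold change of -0.0046 (95% interval -0.37 to 0.36). Its sign turned with the scaling, at 0.02 under quantile normalization and 0.0065 with the array medians set to 0. A dimmer probe set of Tead1 had -0.12 (SE 0.255).

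Tead2, a family member known from mouse embryos and stem cells, varied most of the TEAD genes. It stood at 8.05, 7.49 and 7.40 after mrhl siRNA and at 7.84, 6.64 and 7.26 after scrambled siRNA. In 3 of 3 pairs Tead2 had the higher value after mrhl siRNA, but the groups overlap, and the log2 fold change of 0.40 (SE 0.323, 95% interval -0.36 to 1.15) did not pass (limma, adjusted p = 0.965). Much of it came from scrambled siRNA replicate 2, the lowest array, without which it was 0.09. It was 0.20 without mrhl siRNA replicate 1 and 0.70 without scrambled siRNA replicate 1. With the replicate block the interval of Tead2 was -0.05 to 0.85 (limma, adjusted p = 0.513).

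The values of Tead3 differed little within a group, and its groups did not overlap. It stood at 7.02, 7.06 and 7.18 after mrhl siRNA and at 6.84, 6.78 and 6.98 after scrambled siRNA, with differences within pairs of 0.17, 0.27 and 0.19. For Tead3 this gave a log2 fold change of 0.21 (SE 0.138, 95% interval -0.11 to 0.54), a ratio of 1.16, which did not pass (limma, adjusted p = 0.965). With the replicate block its interval was -0.06 to 0.48 (limma, adjusted p = 0.531). Tead4, dim on these arrays, had 4.54, 4.35 and 4.85 after mrhl siRNA and 4.32, 4.16 and 4.77 after scrambled siRNA, a log2 fold change of 0.17 (SE 0.214). Its interval with the replicate block was -0.11 to 0.44 (limma, adjusted p = 0.584). The other probe set of Tead4 lay under the level needed for the test and had pairs on both sides of 0. Tead2, Tead3 and Tead4 were thus each higher in 3 of 3 pairs through their tested probe set, as were 14.1% of all tested probe sets. Of these 3 genes, 0 passed.

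**Figure D2:**
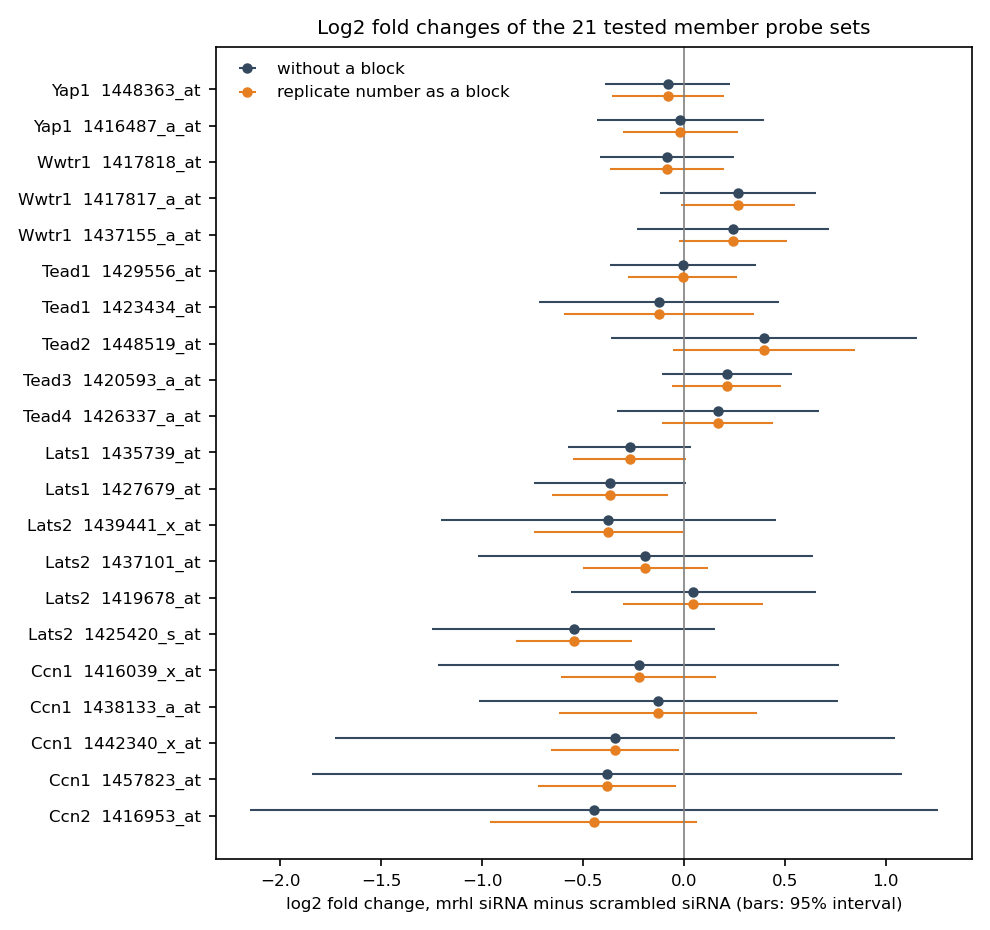
Log2 fold change (mrhl siRNA minus scrambled siRNA) of the 21 tested member probe sets, with 95% intervals from the limma fit without a block (dark) and with the replicate number as a block (orange). The intervals of Ccn2 and Ccn1 are the widest without the block, and that of Ccn2 narrows to -0.96 to 0.07 with it.

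The inhibitory kinase gene Lats1 was lower after mrhl siRNA on every array, through both of its probe sets. The brighter stood at 8.59, 8.58 and 8.61 after mrhl siRNA and at 8.80, 8.95 and 8.83 after scrambled siRNA. Its pairs differed by -0.21, -0.37 and -0.22, giving a log2 fold change of -0.27 (SE 0.130, 95% interval -0.57 to 0.04, limma, adjusted p = 0.965), a ratio of 0.830. The dimmer stood at 5.79, 5.60 and 6.00 after mrhl siRNA and at 6.09, 6.10 and 6.30 after scrambled siRNA, a log2 fold change of -0.37 (SE 0.161, 95% interval -0.74 to 0.01). With the replicate block the interval of the dimmer probe set was -0.65 to -0.08 and that of the brighter -0.55 to 0.01 (limma, adjusted p = 0.487 and 0.498), so Lats1 did not pass in either fit. Its log2 fold change through the brighter probe set ran from -0.30 to -0.22 over the alternative settings, and the mean over both probe sets was -0.32.

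Lats2, the paralog of Lats1 and a YAP/TAZ target in its own right, differed more between replicate numbers than between siRNAs. Its brightest probe set (suffix _x_at) stood at 7.97, 8.11 and 9.03 after mrhl siRNA and at 8.20, 8.80 and 9.23 after scrambled siRNA. In both groups the array of number 3 was the highest, about 2-fold above the lowest (ratios of 2.09 and 2.05). The fit gave a log2 fold change of -0.37 (SE 0.354, 95% interval -1.20 to 0.46, limma, adjusted p = 0.965), and with the replicate block the interval was -0.74 to -0.0054 (limma, adjusted p = 0.493). Without scrambled siRNA replicate 3 it was -0.13, without mrhl siRNA replicate 1 -0.17, without mrhl siRNA replicate 2 -0.24, without scrambled siRNA replicate 1 -0.65 and without mrhl siRNA replicate 3 -0.71, all on the lower side.

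The other probe sets of Lats2 differed among themselves. The dimmest tested one (suffix _s_at) stood at 4.69, 4.83 and 5.57 after mrhl siRNA and at 5.18, 5.51 and 6.03 after scrambled siRNA. It was lower within the pairs by 0.49, 0.68 and 0.46, its log2 fold change being -0.54 (SE 0.300), with an interval of -0.83 to -0.26 with the replicate block (limma, adjusted p = 0.487). By contrast the second brightest had -0.19 (SE 0.355) and the third 0.05 (SE 0.258), and 2 further probe sets lay under the level needed for the test. The suffixes _s_at and _x_at mark probe sets with probes that can match other transcripts, so the 4 tested readings need not be of the same RNA.

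The targets Ccn1 and Ccn2 showed the widest spread of the module, and most of it lay between replicate numbers. Ccn2, formerly called connective tissue growth factor, stood at 9.76, 10.90 and 12.37 after mrhl siRNA and at 10.73, 10.96 and 12.68 after scrambled siRNA. Within a group the highest array was 6.09-fold above the lowest after mrhl siRNA and 3.84-fold after scrambled siRNA. Both arrays of number 3 were above the other 4, and mrhl siRNA replicate 1 was the lowest of all 6.

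Between the siRNAs, Ccn2 was lower after mrhl siRNA by 0.97, 0.06 and 0.31 within the pairs. For Ccn2 the fit gave a log2 fold change of -0.45 (SE 0.728, 95% interval -2.15 to 1.26, limma, adjusted p = 0.967), and with the replicate block the interval was -0.96 to 0.07 (limma, adjusted p = 0.515). Its sign rested on single arrays: it was 0.18 without mrhl siRNA replicate 1 and 0.16 without scrambled siRNA replicate 3, against -1.13 without mrhl siRNA replicate 3, -0.81 without scrambled siRNA replicate 1 and -0.70 without scrambled siRNA replicate 2. With both arrays of number 1 left out it was -0.18, and with both of number 3 left out, a setting added after seeing the data, it was -0.51.

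Ccn1, formerly Cyr61, was read through 4 probe sets. The brightest and the third brightest carry the suffix _x_at, so, as for Lats2, their probes can match other transcripts. The brightest stood at 9.75, 10.37 and 11.18 after mrhl siRNA and at 10.28, 10.31 and 11.38 after scrambled siRNA. The differences within its pairs were -0.53, 0.06 and -0.20, which gave a log2 fold change of -0.22 (SE 0.424, 95% interval -1.22 to 0.77, limma, adjusted p = 0.973). As for Ccn2, its sign turned without mrhl siRNA replicate 1 (0.12) and without scrambled siRNA replicate 3 (0.14). It was -0.60, -0.41 and -0.40 without mrhl siRNA replicate 3, scrambled siRNA replicate 1 and scrambled siRNA replicate 2, and -0.07 with both arrays of number 1 left out.

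The second brightest probe set of Ccn1 had a log2 fold change of -0.13 with pairs on both sides of 0. The 2 dimmer probe sets were lower in 3 of 3 pairs, with -0.34 (SE 0.592) and -0.38 (SE 0.625) and blocked intervals of -0.66 to -0.03 and -0.72 to -0.04 (limma, adjusted p = 0.487 for each). Both are listed for the same sequence record, so they are not separate readings. In pair 2 they were lower by 0.55 and 0.65, while the brighter probe sets were higher by 0.06 and 0.36, so the probe sets of Ccn1 disagreed in the very pair where Ccn2 was nearly level.

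Differences between replicate numbers were then read from the blocked fit, as an F test added after seeing the data. It called 0 of the 21 tested member probe sets (limma, smallest adjusted p = 0.124) and 0% of all. At an unadjusted p under 0.05 stood 12 of the 21, beside 23.1% of all probe sets. Both arrays of number 3 lay above the other 4 in 13 of the 21, beside 18.6% of all. These were all 4 tested probe sets of Lats2 and all 4 of Ccn1, the only one of Ccn2, both of Tead1, 1 of the 3 of Wwtr1 and the tested one of Tead4. Because probe sets of a gene are not independent, the brightest of each gene was also counted. Both arrays of number 3 were then the highest in 6 of the 10 genes, beside 16.7% of all genes. The F test had an unadjusted p under 0.05 in 5 of the 10, beside 3129 of all 14885 genes. Number 3 exceeded the mean of numbers 1 and 2 by 1.93 in Ccn2, by 0.95 to 1.71 in the probe sets of Ccn1 and by 0.61 to 0.93 in the tested ones of Lats2, against a median of 0.06 over all tested probe sets. Yap1 had -0.05 and Lats1 -0.0079 through their brightest probe sets.

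**Figure D3:**
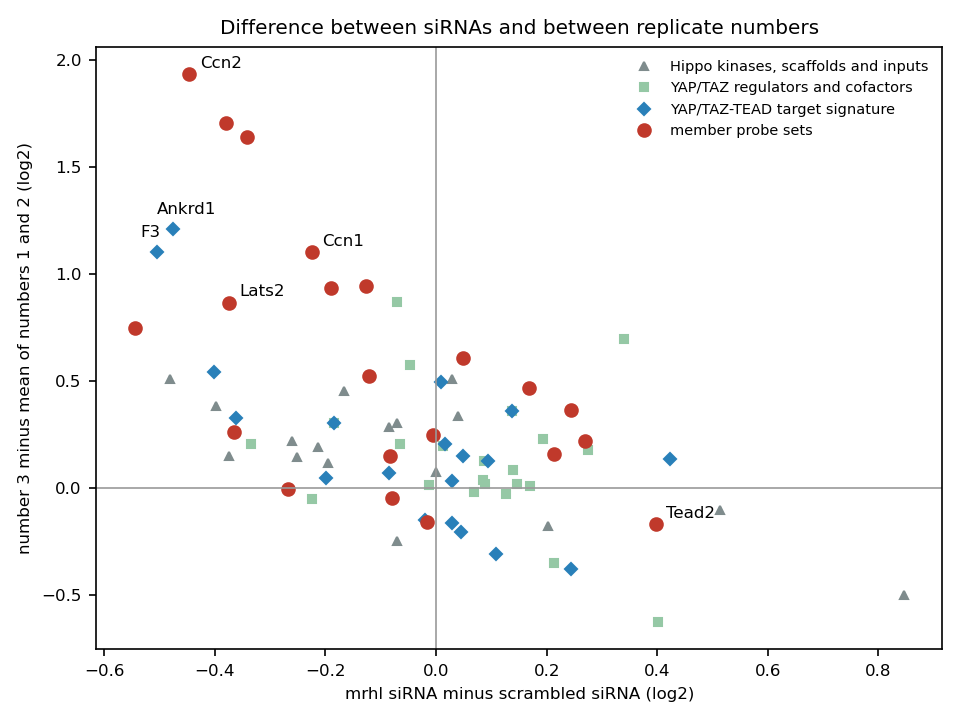
Difference between siRNAs (horizontal, mrhl siRNA minus scrambled siRNA, log2) against difference between replicate numbers (vertical, number 3 minus the mean of numbers 1 and 2, log2) for the 21 tested member probe sets (red) and the brightest tested probe set of each gene in the pathway lists. Ccn2 at 1.93, Ccn1 up to 1.71 and Ankrd1 at 1.21 stand highest, and all lie left of 0.

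Technical values of the arrays were read beside this pattern. The difference between the 3′ and 5′ control probe sets of Gapdh was -0.19 and -0.20 on the mrhl siRNA and scrambled siRNA arrays of number 3, and between -0.13 and -0.08 on the other 4. The same difference for beta-actin did not set number 3 apart, at 0.45 and 0.42 in number 3, 0.38 and 0.42 in the other mrhl siRNA arrays and 0.63 and 0.48 in the other scrambled siRNA arrays. The array medians of number 3 were 5.30 for both, against 5.19 to 5.29 on the others. The 18S control signal was 6.76 and 6.48 in number 3, but 7.83 in scrambled siRNA replicate 2 and 2.99 to 3.57 on the other 3 arrays. Their part in the levels of Ccn1, Ccn2 and Lats2 was not tested.

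Ccn1 and Ccn2 followed each other closely over the arrays. Among 5416 genes above the median level with an SD of at least 0.2 over the arrays, Ccn1 was the gene most like Ccn2 (Pearson r = 0.998 over 6 arrays, and 0.990 over the 4 arrays without number 3). The next were 2310030G06Rik (r = 0.997) and Vcl (r = 0.997), which encodes vinculin, a protein of focal adhesions. Vcl stood at 11.54, 11.79 and 12.16 after mrhl siRNA and at 11.77, 11.85 and 12.30 after scrambled siRNA. The genes most like Ccn1 were Senp5, a SUMO protease gene, Sorcs2, a sorting receptor gene, and Ccn2, each with r = 0.998. Lats2 came 400th for Ccn2 (r = 0.908) and 487th for Ccn1 (r = 0.887). Over the 4 arrays without number 3 its r was lower, at 0.623 to Ccn2 and 0.506 to Ccn1. These correlations describe 6 arrays that share their siRNA groups and replicate numbers.

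**Figure D4:**
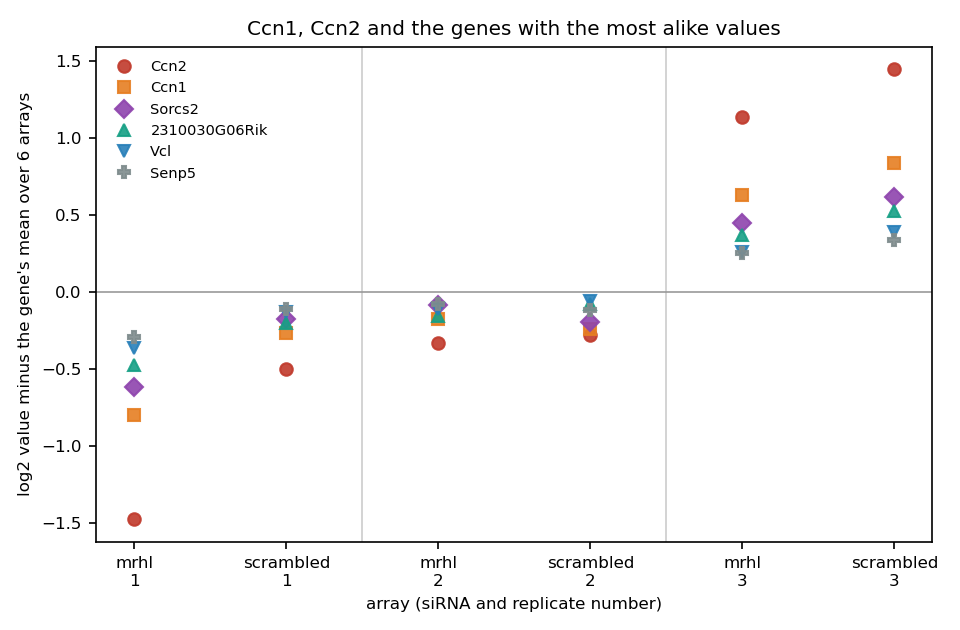
Log2 value of Ccn2, Ccn1 and the 4 other genes most like them on each array, minus the gene's mean over the 6 arrays. The points of all 6 genes lie above 0 on both arrays of number 3 and lowest on mrhl siRNA replicate 1, with Ccn2 spanning the most.

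The other CCN genes did not share this pattern. Ccn4, the bright one, stood at 11.36, 11.21 and 11.05 after mrhl siRNA and at 11.41, 11.06 and 10.99 after scrambled siRNA, lowest on the arrays of number 3. Its log2 fold change was 0.06, and those of Ccn3, Ccn5 and Ccn6 were -0.09, 0.15 and 0.07, with 0 of the 4 past the test (limma, smallest adjusted p = 0.974). In 0 of the 4 were both arrays of number 3 the highest, beside 16.7% of all genes read through their brightest probe set.

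Of the 22 listed Hippo kinases, scaffolds and inputs, not all of which act upstream of LATS, 18 had a probe set of their own and 17 were tested. None passed (limma, smallest adjusted p = 0.965), with 6 positive and 11 negative values and a median of -0.09, against -0.04 over the brightest probe set of every gene. MST2 (Stk3) had no probe set of its own in the probe table. Its paralog Stk4, which encodes MST1, had -0.19 (SE 0.140) through its brightest probe set, and -0.02 and 0.01 through the others. The scaffold gene Sav1 had -0.07 (SE 0.167), and 0.02 through its dimmer probe set. Nf2, which encodes the upstream activator merlin, had 0.20 (SE 0.205) through the brightest of 4 probe sets, and -0.09, 0.38 and 0.18 through the others. At the block's unadjusted p under 0.05 stood 5 of the 17, 2 higher and 3 lower after mrhl siRNA, beside 9.03% of all genes (3.14% higher and 5.89% lower).

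In the fit without a block, the smallest p values of that list in each direction belonged to Taok3 and Taok2, and to Map4k5 and Mob1b. Taok3, a kinase acting upstream of MST and LATS, stood at 9.14, 8.75 and 8.64 after mrhl siRNA and at 8.66, 7.94 and 8.40 after scrambled siRNA. The log2 fold change of Taok3 was 0.51 (SE 0.228, limma, adjusted p = 0.965), but its other probe sets had 0.02, 0.16 and 0.03. Taok2 had 0.85 (SE 0.417) through its brightest probe set and -0.56 (SE 0.251) through a dimmer one, so its direction was not settled. On the lower side, Map4k5, a kinase that can phosphorylate LATS, had -0.40 (SE 0.184) and was lower in 3 of 3 pairs, and its other 2 probe sets had -0.30 and -0.51. Mob1b, a coactivator subunit of LATS, had -0.37 (SE 0.192) and a dimmer probe set with -0.15. With the replicate block Fat4, named after its values were seen, had a smaller p than Mob1b (limma, unadjusted p = 0.0208 against 0.0393). Fat4 had -0.48 (SE 0.316), and its dimmer probe set had -0.60 (SE 0.335).

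Of the regulators and cofactors of YAP and TAZ, 22 of the 23 listed had a probe set of their own and were tested. None passed (limma, smallest adjusted p = 0.965), with 15 positive and 7 negative values and a median of 0.09. At the block's unadjusted p under 0.05 were 2 of the 22, 1 higher and 1 lower, a share near the 9.03% of all genes. Limd1, a LIM protein that binds LATS and restrains it, stood at 8.83, 8.83 and 8.98 after mrhl siRNA and at 8.63, 8.45 and 8.73 after scrambled siRNA, without overlap. Its log2 fold change was 0.27 (SE 0.146), and its other probe set had 0.35 (SE 0.146). Amot, which encodes angiomotin, a protein that binds YAP at junctions, had -0.33 (SE 0.161) without overlap, while 2 dimmer probe sets had 0.13 and 0.05. The phosphatase gene Ptpn14 had -0.18 (SE 0.168), with -0.33 and 0.19 through dimmer probe sets. The TEAD cofactor genes Vgll1 and Vgll4 had 0.40 (SE 0.294, dim) and 0.19 (SE 0.164), and the angiomotin-like gene Amotl2 had 0.14 (SE 0.190).

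All 19 listed further targets of YAP, TAZ and TEAD were tested, 0 passed (limma, smallest adjusted p = 0.965), and 11 had positive and 8 negative values with a median of 0.02. The list was drawn largely from human cells, and it shares Amotl2 and Ptpn14 with the list of regulators. At the block's unadjusted p under 0.05 stood 5 of the 19, 1 higher and 4 lower after mrhl siRNA, beside 3.14% higher and 5.89% lower of all genes. In 7 of the 19 both arrays of number 3 were the highest, beside 16.7% of all genes.

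Ankrd1, which encodes a cardiac ankyrin repeat protein and is often measured beside Ccn1 and Ccn2, stood at 9.63, 10.64 and 11.26 after mrhl siRNA and at 9.98, 11.12 and 11.85 after scrambled siRNA. Like Ccn2 it was highest on the arrays of number 3 and lowest on those of number 1. It was lower after mrhl siRNA in 3 of 3 pairs, by 0.36, 0.48 and 0.59, with a log2 fold change of -0.48 (SE 0.547, limma, adjusted p = 0.965, and 0.487 with the replicate block). Its other probe set had -0.55 (SE 0.605). The tissue factor gene F3, named after its values were seen, stood at 7.46, 7.81 and 8.88 after mrhl siRNA and at 7.93, 8.54 and 9.20 after scrambled siRNA, with a log2 fold change of -0.50 (SE 0.434).

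Other targets of the list differed in direction, between genes or between the probe sets of a gene. Ccdc80, a matrix protein gene, stood at 10.97, 10.53 and 10.81 after mrhl siRNA and at 10.47, 10.08 and 10.49 after scrambled siRNA, higher in 3 of 3 pairs and without overlap. Its log2 fold change was 0.42 (SE 0.185, limma, adjusted p = 0.965), and its other probe set had 0.78 (SE 0.272). Dock5 had -0.36 (SE 0.171), with 0.0063 and -0.23 through dimmer probe sets, and the dim Fjx1 had -0.20 (SE 0.128), with 0.27 and 0.56 through dimmer ones. The receptor tyrosine kinase gene Axl, at 0.09 (SE 0.185), and Arhgef17, at 0.24 (SE 0.276) through the brightest of 5 probe sets, each had probe sets with differences of either sign.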

How the data were processed

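The authors deposited log2 expression values, 1 per probe set and array, for 6 Affymetrix arrays (3 after mrhl siRNA, 3 after scrambled siRNA). GCOS and PLIER are the tools named in the submitters' processing notes; their versions, the background correction and the normalization are not given there, and the log2 scale was read from the values. Values were used as deposited. Of 45101 rows, 64 controls were left out, and probe sets with a mean under the 25th percentile (3.62) were not tested, leaving 33778. Genes were named from a probe table that pairs 34945 probe sets with 1 symbol, 932 with several and does not list 9160. A gene was read through its brightest tested probe set unless another is named.

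Groups were compared with limma 3.58.1 (lmFit, eBayes, R 4.3.3), two-sided, with Benjamini-Hochberg adjustment over all 33778 and a threshold of 0.05. Only the fit without a block was tested on simulated data. Their noise was independent between arrays, so they lack the shared deviations of equal replicate numbers given below. P-values of the main fit set the difference between the groups against the spread between these replicates, which limma estimates partly from all probe sets. In the blocked fit only the spread left after removing differences between replicate numbers is used. Deviations from the group means correlated at 0.534, 0.201 and 0.567 for equal replicate numbers, above the limit of 0.1, and at -0.518 to 0.0684 for unequal ones. The numbers were therefore read as pairs, which the design text's independent experiments allow. A blocked fit stands beside the main one for most member genes and most counts. For most genes outside the module only the fit without a block is printed. Members and lists were chosen with earlier results of these data known. Named by rule were all members, the 4 other CCN genes, 8 fixed pathway genes, the 2 genes of smallest p per list and direction, and the 3 genes most like Ccn1 and Ccn2. Figures were drawn with matplotlib 3.10.9.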

Additional observations from a re-analysis of the deposited data

How the results depend on the processing

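Over all probe sets, 0 passed in the settings run except the replicate block with a trended and robust variance model, where 2 did, Col3a1 and a probe set of Smarca4 (limma, adjusted p = 0.000758 and 0.0445), named after their values were seen; the smallest adjusted p of a member there was 0.268 (limma). The count of member probe sets at an unadjusted p under 0.05, 0 without a block, was 5 with the replicate block, 10 with the block and the trended and robust model, 2 with array weights, and 1 each with quantile normalization, array medians set to 0, the filter at the median level, the trended and robust model alone, and both arrays of number 3 left out. It ran from 0 to 2 with single arrays left out. Over all 33778 tested probe sets the share was 3.44% without a block and 10.1% with the replicate block. With the block and the trended and robust model, 4411 of the 33778 stood at an unadjusted p under 0.05. For the other settings no share over all probe sets was counted, so those counts cannot be read as a result about the members. The causes were not tested. Among the 10 genes, Yap1, Tead2, Tead3, Tead4, Lats1 and Lats2 kept their sign in every setting that tested them; the dim Tead4 was not tested under the filter at the median level. With single arrays left out, the log2 fold change ran from -0.60 to 0.14 for Ccn1, from -1.13 to 0.18 for Ccn2 and from -0.0997 to 0.0655 for Tead1. Tead1 also turned to 0.0191 under quantile normalization and 0.0065 with array medians set to 0, and Wwtr1 to 0.14 as the mean over its probe sets. With array weights all 10 genes kept their sign, but some values moved far. Ccn2 had -0.94, Ccn1 -0.50 and Lats2 -0.61, against -0.45, -0.22 and -0.37 in the main fit. Tead2 rose from 0.40 to 0.47, and Tead4 fell from 0.17 to 0.05. The offsets planned for linear values were not run, since the values are on a log2 scale. Dim probe sets, such as those of Tead4 and Vgll1, limit how far their differences can be read.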
